A study of Mus musculus with 16 samples.

Results

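The receptors through which T cells sense interleukins and interferon gamma were followed across a mouse ovarian cancer study, as 10 genes: Il7r, Il2rb, Il2rg, Il12rb1, Il12rb2, Il18r1, Il18rap, Il21r, Il15ra and Ifngr1. They were taken by symbol from every table and all 10 were found, among 53112 symbols in the tumour tables and 55290 in the tables of sorted cells. Messenger RNA was measured by bulk RNA sequencing of HM1 tumours, which grow from a mouse ovarian cancer cell line. Whole tumour tissue gave 5 control libraries and 5 with supplementation of mannose, a simple sugar, and CD8 T cells sorted out of HM1 tumours gave 3 control and 3 mannose libraries. The title of the series names an antibody therapy against PD-1, but the labels do not say whether any of these groups received it, nor do they give the strain, age, mannose dose or duration. Values are TPM, an abundance corrected for transcript length and scaled to a fixed total per library.

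Cytokine receptors are assembled from chains that are often shared. Il2rg is the common gamma chain, which pairs with Il7r to bind interleukin 7, with Il21r to bind interleukin 21, and with Il2rb to signal for interleukins 2 and 15. Il12rb1 and Il12rb2 together bind interleukin 12, Il18r1 and Il18rap bind interleukin 18, and Ifngr1 is the ligand-binding chain for interferon gamma. All but the interleukin 18 receptor, which signals through Myd88 to NF-kappaB, act through JAK kinases and STAT factors. On CD8 T cells, Il7r is a known marker of naive and memory cells and falls on activation, while Il12rb2 is induced by activation. Several of these chains, Ifngr1 and Il2rg among them, are also made by macrophages and other cells.

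The stretches of DNA just upstream of 3 of these genes are shown because Il7r and Il12rb2 had the largest differences between the mannose and control CD8 libraries, and Il2rg is the chain that several receptors share. They are the 250 bases before the annotated start in RefSeq on GRCm38.p6, an older build than the GRCm39 named for the tables, 5′ to 3′ on the strand of the gene. They span chr15:9529877-9530126 (minus strand) for Il7r, chr6:67376189-67376438 (minus strand) for Il12rb2 and chrX:101268256-101268505 (minus strand) for Il2rg. Capitals mark the STAT motif TTCNNNGAA in Il7r and Il12rb2 and the ETS motif CCGGAAG in Il2rg.
Il7r: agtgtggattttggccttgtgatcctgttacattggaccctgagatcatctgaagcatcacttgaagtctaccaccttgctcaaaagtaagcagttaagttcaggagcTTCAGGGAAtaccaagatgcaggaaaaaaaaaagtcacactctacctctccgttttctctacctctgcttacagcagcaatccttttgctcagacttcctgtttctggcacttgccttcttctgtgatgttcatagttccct
Il12rb2: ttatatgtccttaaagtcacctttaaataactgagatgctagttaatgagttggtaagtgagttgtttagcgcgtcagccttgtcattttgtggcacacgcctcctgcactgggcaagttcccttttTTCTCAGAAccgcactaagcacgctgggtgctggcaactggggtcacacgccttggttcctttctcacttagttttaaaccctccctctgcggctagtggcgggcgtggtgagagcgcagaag
Il2rg: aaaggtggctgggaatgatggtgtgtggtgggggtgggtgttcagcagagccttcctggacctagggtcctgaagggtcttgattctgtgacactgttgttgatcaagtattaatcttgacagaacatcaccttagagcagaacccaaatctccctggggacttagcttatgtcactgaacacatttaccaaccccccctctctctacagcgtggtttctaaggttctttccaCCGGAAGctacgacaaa

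The STAT motif read TTCAGGGAA from 142 bases before the start of Il7r and TTCTCAGAA from 123 bases before that of Il12rb2. RefSeq promoters were matched for 8 of the 10 genes, in 11 windows, and not for Il2rb and Il12rb1. Each motif was searched on both strands. TTCNNNGAA was found in 3 of the 11 windows (Il7r, Il12rb2 and 1 start of Il18r1), against 7.02% of 32851 RefSeq windows of this length. CCGGAAG was found in Il2rg, 17 bases before the start, and in Il15ra, against 6.91% of all windows. The AP1 motif TGANTCA was found only in Il15ra, against 6.75%, and the T-box motif GGTGTGA in none of the 11, against 3.33%. Each window shown held a single match to these motifs. A match describes the letters of the window, and these data do not measure binding.

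Several features of the libraries bear on what follows. The value columns of the 3 CD8 control tables carry mannose names in their headers, as do those of the 3 CD8 mannose tables, and the sample labels were followed. Among the CD8 libraries, control 1 and 2 used 35 T cell receptor beta V segments in nearly the same shares (r = 0.9987), and so did mannose 1 and 2 (r = 0.9948), while other pairs within a group gave r from 0.298 to 0.546. Across the groups, control 3 was like mannose 1 and 2 (r = 0.758 and 0.763), and the other pairs gave r from 0.267 to 0.353. The members of such a pair may not be separate samples, so results are also given with each pair averaged into 1, which leaves 2 against 2. Whole tumours control 1 and mannose 3 correlated least well on average with the remaining tumours over all genes (r = 0.9751 and 0.9825), and results are also given without them. Since no label ties a replicate to an animal, the spread behind each p-value may be technical. Read depth is unknown, and 12345 to 14384 symbols reached 1 TPM per library.

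The sorted libraries held the CD8 T cell RNA of their label, with much RNA of other cells beside it. Cd8a, which encodes a chain of CD8, stood at 582 ± 11.4 TPM (SD, n = 3) in the controls, against 13.7 ± 1.00 TPM for Cd4. The summed level of 13 T cell markers was 6311 to 6904 TPM in CD8 controls and 3306, 4202 and 6285 TPM in mannose 1, 2 and 3. The summed level of 10 macrophage markers was 4350 to 4657 TPM in the controls and 1187 to 1567 TPM with mannose. That of 6 carcinoma markers was 235.9 to 529.8 TPM and 1608 to 2459 TPM. In whole control tumours the T cell markers summed to 14.2 to 72.2 TPM and the macrophage markers to 1709 to 3010 TPM. The sorted controls thus stood above unsorted control tumours for macrophage markers as well as T cell markers, though these tables were scaled separately. None of the T cell, macrophage and carcinoma markers was at 0 in every library of a group. Mannose 1 and 2 thus held the least T cell marker RNA, and mannose 3 held nearly as much as the controls.

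In the CD8 controls, receptor chains ranked from Il2rb at 734 ± 30.8 TPM (SD, n = 3) down to Il15ra at 23.2 ± 2.94 TPM. Il2rg at 570 ± 18.5 TPM, Ifngr1 at 461 ± 29.4 TPM and Il21r at 266 ± 23.2 TPM followed Il2rb, each with a range apart from its neighbours. Below them came Il7r (99.8 ± 15.6 TPM), Il18rap (68.0 ± 3.87), Il12rb2 (64.8 ± 7.11), Il18r1 (36.4 ± 1.17) and Il12rb1 (27.2 ± 3.39). Ranges of Il18rap and Il12rb2 overlapped, as did those of Il12rb1 and Il15ra. With mannose, Il2rb (452 ± 162), Il2rg (362 ± 92.5), Ifngr1 (284 ± 74.7) and Il21r (140.5 ± 63.7 TPM) kept the top 4 places. Ranges of Il2rb and Il2rg overlapped there, as did those of Il2rg and Ifngr1. The lower 6 chains, from Il18rap at 38.2 ± 26.4 TPM to Il15ra at 18.2 ± 3.79 TPM, overlapped each with the next.

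Whole tumours ranked the chains differently. Il2rg led at 40.4 ± 15.7 TPM (SD, n = 5) in control tumours, followed by Ifngr1 at 30.5 ± 5.02 TPM and Il12rb1 at 22.04 ± 11.6 TPM, while Il2rb stood at 5.65 ± 3.74 TPM. Il7r at 1.21 ± 0.568 TPM, Il18r1 at 0.700 ± 0.259 TPM and Il12rb2 at 0.302 ± 0.194 TPM were the lowest 3. Neighbours in this order overlapped in range except Il15ra (4.99 ± 2.43 TPM) and Il7r. Between the tissues, Il12rb1 lay at like levels, 9.17 to 41.0 TPM in control tumours and 23.6 to 30.4 TPM in CD8 controls, whereas its partner Il12rb2 lay at 0.05 to 0.57 TPM and 59.8 to 72.9 TPM. The 2 sets of tables follow different gene lists and were scaled separately, so levels were not tested across tissues.

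**Figure D1:**
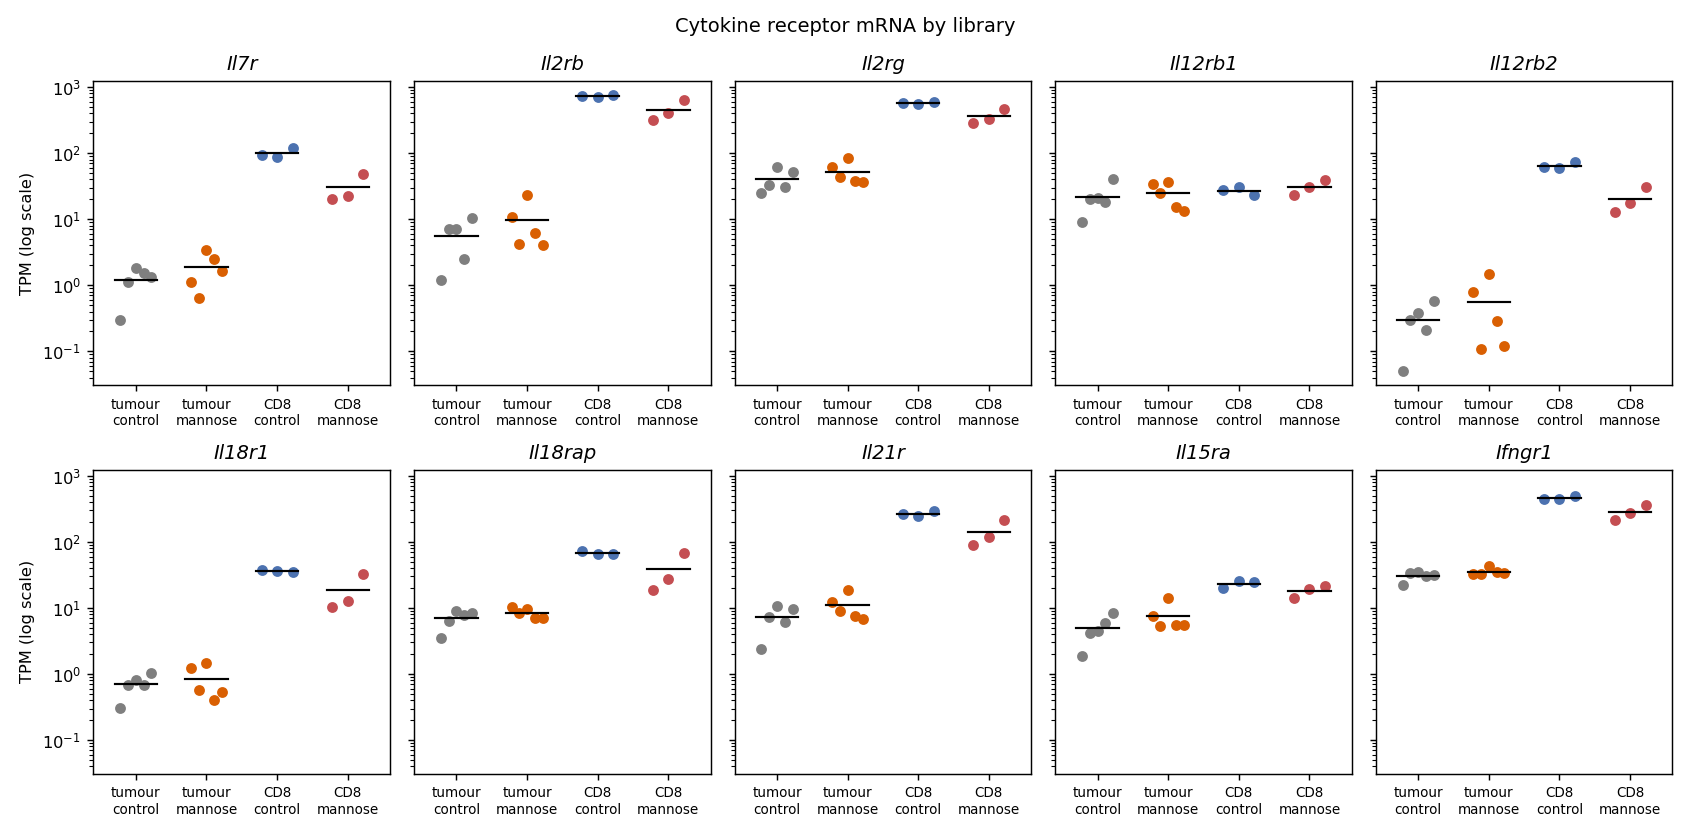
TPM (log scale) of the 10 receptor genes in each of the 16 libraries, 1 point per library in replicate order, with the group mean as a line. CD8 mannose points lie below the CD8 controls for Il7r and Il12rb2 and overlap them for Il12rb1, while control and mannose tumours overlap for each of the 10 genes.

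The comparison of mannose with control in sorted CD8 T cells asked how the supplement changed expression in these cells. Of the 10 receptor genes, 6 fell with mannose and none rose: Il7r, Il12rb2, Il21r, Il2rb, Ifngr1 and Il2rg passed the test. The falls ran from 3.42-fold for Il7r to 1.61-fold for Il2rg on the scale of TPM + 1. Il18r1, Il18rap and Il15ra had lower means and Il12rb1 a higher one, but these did not pass. The test was limma on log2(TPM + 1), adjusted by the Benjamini-Hochberg method over 14280 genes at a threshold of 0.05, in which 11.7% of genes were called lower and 34.9% in either direction. Of the receptor genes 8 had an unadjusted p under 0.05, against 46.3% of all genes, and 1 had a higher mean with mannose, against 58.1%. Past the threshold with a fall of at least 2-fold were 3, Il7r, Il12rb2 and Il21r, against 4.35% of all genes. The median difference of the 10 genes was -0.88 on the log2 scale, against 0.09 over all genes tested. In bulk RNA, fewer T cells in a library, less RNA of other cells that make these chains and less receptor RNA per cell cannot be told apart. All 10 macrophage markers were called lower in the same test, with a median of -1.89, and their part in these falls was not tested.

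Il7r, the interleukin 7 receptor chain that supports T cell survival, stood at 93.5, 88.3 and 118 TPM in the CD8 controls and at 20.5, 22.5 and 48.6 TPM with mannose. Each mannose library lay below each control, with mannose 3 the nearest. The difference was -1.78 on the log2 scale (SE 0.31, adjusted p = 0.00634, limma). Its mean fell to 30.5 ± 15.7 TPM (SD, n = 3).

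Il2rg, the shared gamma chain, stood at 571, 551 and 588 TPM in the controls and at 287, 333 and 465 TPM with mannose, a difference of -0.68 (SE 0.17, adjusted p = 0.0207, limma). Il2rb, the signalling chain for interleukins 2 and 15, stood at 738, 702 and 763 TPM and at 314.9, 409.9 and 631 TPM, a difference of -0.76 (SE 0.23, adjusted p = 0.0427). Il21r, which binds interleukin 21, stood at 259.6, 247 and 292 TPM and at 89.6, 119.9 and 212 TPM, a difference of -1.01 (SE 0.29, adjusted p = 0.0341). For all 3 chains the groups did not overlap and the order of the mannose libraries was the same, with mannose 1 lowest and mannose 3 highest. Il15ra, which presents interleukin 15 to Il2rb and Il2rg, stood at 19.9, 25.4 and 24.4 TPM in the controls and at 14.0, 19.1 and 21.4 TPM with mannose. Its groups overlapped, and the difference of -0.35 (95% interval -0.77 to 0.07, adjusted p = 0.165) did not pass.

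Of the interleukin 12 receptor, 1 chain fell and the other did not pass. Il12rb2 stood at 61.5, 59.8 and 72.9 TPM in the controls and at 12.7, 17.4 and 31.0 TPM with mannose, a fall of 3.27-fold (log2 difference -1.71, SE 0.29, adjusted p = 0.00567, limma). Il12rb1 stood at 27.4, 30.4 and 23.6 TPM and at 23.3, 30.4 and 38.7 TPM, a difference of 0.15 (95% interval -0.30 to 0.61, adjusted p = 0.569). Its groups overlapped, with mannose 1 just below every control and mannose 3 above.

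The chains of the interleukin 18 receptor were low in mannose 1 and 2 and at or near control levels in mannose 3. Il18r1, the ligand-binding chain, stood at 37.6, 36.4 and 35.3 TPM in the controls and at 10.3, 12.9 and 33.0 TPM with mannose, a difference of -1.10 (SE 0.38, adjusted p = 0.0634, limma). Il18rap, the accessory chain, stood at 72.4, 66.1 and 65.4 TPM and at 18.9, 27.5 and 68.3 TPM, a difference of -1.02 (SE 0.42, adjusted p = 0.0985). Neither passed, and Il18rap of mannose 3 lay inside the control range. Without mannose 3, the library nearest to the controls, the differences were -1.58 (adjusted p = 0.00119) and -1.53 (adjusted p = 0.00257). That fit left only mannose 1 and 2 in the group, a like pair that may not be separate samples, so its spread may be technical.

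Ifngr1, the ligand-binding chain for interferon gamma, stood at 448, 439.8 and 494 TPM in the controls and at 214, 276 and 362 TPM with mannose. The groups did not overlap, and the difference was -0.73 (SE 0.18, adjusted p = 0.0216, limma). Across the 10 genes, 7 had CD8 groups that did not overlap with mannose lower, against 18.1% of all genes tested. None of the 10 had groups that did not overlap in the other direction, against 33.3%.

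**Figure D2:**
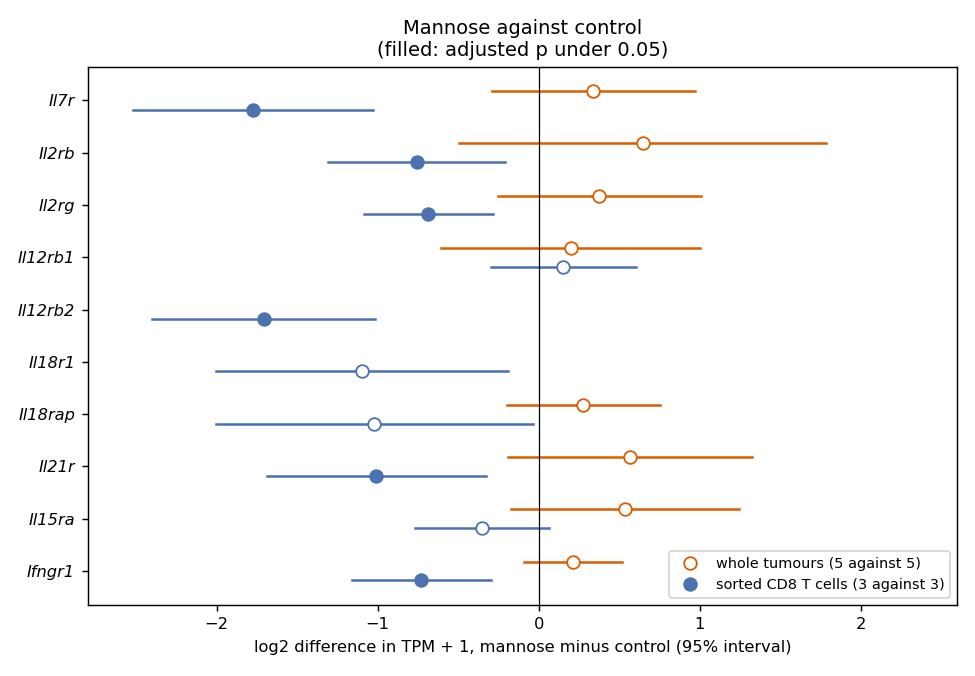
Difference between mannose and control means in log2(TPM + 1), with 95% intervals, for whole tumours (5 against 5, orange) and sorted CD8 T cells (3 against 3, blue); filled points passed the limma test at an adjusted p under 0.05. The 6 filled points are all CD8 and all below 0, and every tumour interval spans 0.

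Markers of T cells moved with these falls. All 13 T cell markers had lower means with mannose in the CD8 libraries, 3 of them called, with a median difference of -0.64. All 10 macrophage markers were called lower, with a median of -1.89. Of the carcinoma markers, 3 of 4 tested were called higher and 1 lower, and 5 of 6 fibroblast markers and 1 of 4 endothelial markers were higher. Called lower were 4 of 5 dendritic cell, 4 of 5 neutrophil, 3 of 3 CD4 and regulatory T cell and 1 of 1 B cell markers tested, and none of 3 NK cell or 3 skeletal muscle markers passed either way. NK cells also make Il2rb and the interleukin 12 and 18 receptors, and their markers summed to 31.1 to 35.6 TPM in the controls and 12.8 to 35.5 TPM with mannose. Most of the control sum was Klri2 (21.8 to 24.9 TPM), while Ncr1 stood at 0.37 to 0.52 TPM and Klra4 and Klra8 at 0. In tumours no marker of any list was called. To see how the receptors stood against T cell RNA, each library was scaled to its mean log2(TPM + 1) of the T cell markers, which moved the median difference of all genes to 0.74, with 6414 genes called higher and 315 lower in place of 3306 and 1674. On this scale Il7r still fell, by 1.12 (log2, adjusted p = 0.00455, limma), as did Il12rb2, by 1.06 (adjusted p = 0.00601), where 2.21% of all genes were called lower. Macrophage markers stayed lower too, with 9 of 10 called and a median of -1.24, so scaling to T cell markers does not remove their change.

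The other 4 calls were lost on the scaled values. Il2rb (-0.11, adjusted p = 0.686), Il2rg (-0.03, adjusted p = 0.902) and Ifngr1 (-0.08, adjusted p = 0.770, limma) lay near 0 on the scaled values. Scaled Il2rb was 579, 580.1 and 596.5 in the controls and 533, 540.2 and 557 with mannose, still without overlap but closer than before scaling. Scaled Il21r was 203.9 to 228 in the controls and 152 to 187 with mannose, also without overlap. Il21r (-0.36, adjusted p = 0.182), Il18r1 (-0.45, adjusted p = 0.181) and Il18rap (-0.37, adjusted p = 0.250) stayed below 0 without passing. All 3 passed on this scale without mannose 3, the library nearest to the controls (adjusted p = 0.0139, 0.00468 and 0.00434, limma). That fit left only a like pair of mannose libraries, which may not be separate samples, so its spread may be technical. It called 10658 of 13786 genes higher and 396 lower. Il15ra turned to 0.30 (adjusted p = 0.350) on the scaled values of all libraries. There Il12rb1 rose by 0.81 (adjusted p = 0.0244), close to the median of all genes, where 44.9% of genes were called higher. The part that macrophage, carcinoma and fibroblast RNA plays in these values was not tested.

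Averaging the like pairs left Il12rb2 as the only call, at -1.58 (adjusted p = 0.0472, limma), where 4.10% of genes were called lower. Il7r kept its size at -1.64 and missed the threshold at adjusted p = 0.0554. The remaining 4 called genes lay between -0.60 and -0.87, at adjusted p from 0.106 to 0.186. With scaling and averaging together no receptor gene was called by limma: Il7r lay at -1.11 (adjusted p = 0.0671) and Il12rb2 at -1.05 (adjusted p = 0.103). In every alternative run the differences of Il7r and Il12rb2 stayed below 0. Il7r passed in 15 of 17 alternatives and Il12rb2 in 16 of 17, while the other 4 called genes passed in 6 to 8.

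**Figure D3:**
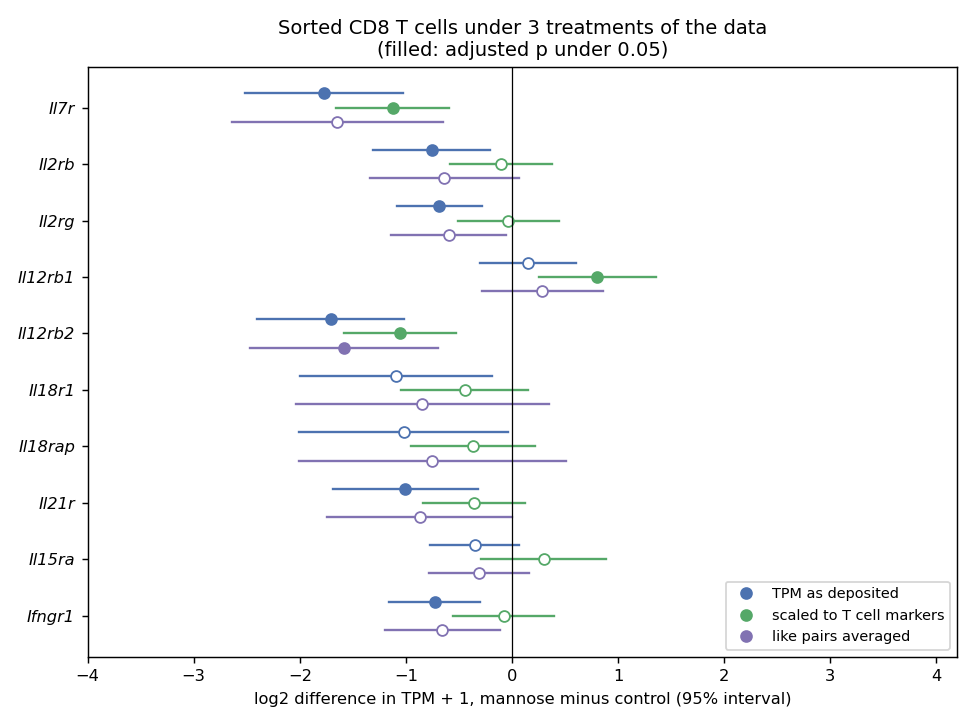
Difference between mannose and control in log2(TPM + 1) in sorted CD8 T cells, with 95% intervals, on TPM as deposited, on values scaled to T cell markers, and with libraries of like V segment use averaged; filled points passed at an adjusted p under 0.05. Il7r and Il12rb2 lie at or below -1.05 in each of the 3, while Il2rb, Il2rg and Ifngr1 move to near 0 on scaling.

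Ratios of 2 chains were compared within libraries. Printed ratios are of TPM and do not move with scaling, while the tests used the log2 ratio of TPM + 1, which the added 1 pulls toward 0 where a chain is low. The ratio of Il12rb2 to Il12rb1 in TPM was 2.25, 1.97 and 3.08 in the CD8 controls and 0.543, 0.574 and 0.801 with mannose. It lay above 1 in the 3 controls and below 1 in the 3 mannose libraries. Carcinoma markers moved with it (235.9 to 529.8 TPM in the controls, 1608 to 2459 TPM with mannose), and in whole control tumours Il12rb1 stood at 22.04 TPM and Il12rb2 at 0.302 TPM on average; the part of other cells in this ratio was not tested. Its log2 fell from 1.23 ± 0.324 to -0.64 ± 0.284 (SD, n = 3 each), a difference of -1.86 (2-sided exact permutation p = 0.1, the smallest that 3 against 3 allows, adjusted p = 0.3 over 6 ratios).

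The ratio of Il7r to Il2rg was 0.164, 0.160 and 0.1999 in the controls and 0.0715, 0.0674 and 0.1045 with mannose, again without overlap. Its log2 differed by -1.09 (2-sided exact permutation p = 0.1, adjusted p = 0.3). The other 4 ratios overlapped between the groups, with exact p from 0.2 to 0.6. Il18rap over Il18r1 stayed within 1.82 to 2.14 in all 6 CD8 libraries, and Il2rb over Il2rg stayed within 1.10 to 1.36. Il21r over Il2rg lay at 0.448 to 0.496 in the controls and 0.313 to 0.456 with mannose, and Il15ra over Il2rb at 0.0270 to 0.0362 and 0.0339 to 0.0465.

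In whole tumours none of the 6 log2 ratios of TPM + 1 passed (2-sided exact permutation p from 0.246 to 1, where 5 against 5 allows 0.00794), nor did any with 0.1 TPM added in place of 1 (exact p from 0.151 to 0.722). The added value decides the order where a chain is near 0: control 1 had the lowest TPM ratio of Il12rb2 to Il12rb1 among the controls (0.00545) but the highest log2 ratio of TPM + 1 (-3.28). The levels of the ratios were unlike those of CD8 cells. Il18rap exceeded Il18r1 by 6.59 to 17.8 times in tumours, and Il12rb2 reached at most 0.0415 of Il12rb1. Il15ra lay between 0.598 and 2.35 of Il2rb.

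**Figure D4:**
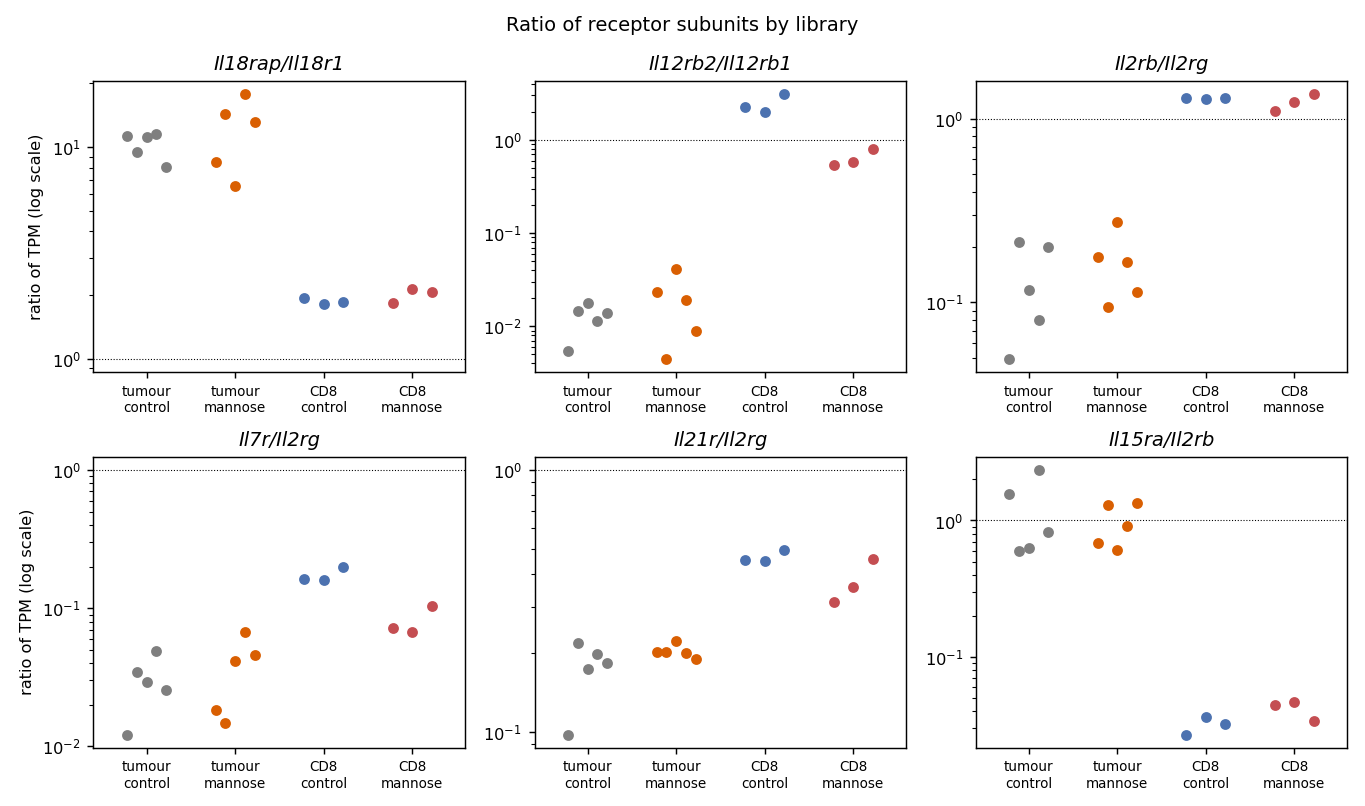
Ratio of the TPM of 2 receptor chains (log scale) in each library, for 6 pairs that form a receptor or share a chain; the dotted line marks a ratio of 1. Il12rb2 over Il12rb1 lies above 1 in the 3 CD8 controls and below 1 in the 3 CD8 mannose libraries, and the tumour groups overlap in all 6 panels.

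The same comparison in whole tumours asked how mannose changed the tissue. No receptor gene passed, as no gene of the 13282 tested did (0% called), with 0 of 8 members and 6.23% of all genes at an unadjusted p under 0.05 by limma. All 8 tested members had higher means with mannose, among 74.4% of all genes, and their median was 0.36, against 0.12 over all genes. Median-ratio scaling of the libraries moved the median of all genes to -0.01 and that of the members to 0.26, with all 8 still above 0. Il12rb2 and Il18r1 were under the filter of 1 TPM in 5 libraries and were not tested.

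Il2rb stood at 1.21, 6.99, 7.22, 2.48 and 10.3 TPM in control tumours and at 10.9, 4.16, 22.9, 6.15 and 4.10 TPM with mannose. Mannose 3 lay above and control 1 below all others, and the rest mingled. The difference was 0.65 (95% interval -0.49 to 1.78, adjusted p = 0.784, limma). Il21r stood at 2.41, 7.16, 10.8, 6.14 and 9.52 TPM and at 12.5, 8.87, 18.8, 7.47 and 6.88 TPM, a difference of 0.57 (95% interval -0.19 to 1.33, adjusted p = 0.754). It had the same lowest and highest tumours.

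Il7r stood at 0.30, 1.12, 1.80, 1.51 and 1.33 TPM in control tumours and at 1.13, 0.65, 3.47, 2.49 and 1.66 TPM with mannose, a difference of 0.34 (95% interval -0.29 to 0.97, adjusted p = 0.792, limma). Ifngr1, made by most cells, varied least: 22.04, 33.8, 34.7, 30.7 and 31.2 TPM against 32.6, 32.5, 43.2, 34.8 and 33.4 TPM, a difference of 0.21 (95% interval -0.09 to 0.52, adjusted p = 0.754). Control 1 was again the lowest and mannose 3 the highest. Il12rb2 ran from 0.05 to 0.57 TPM in control and 0.11 to 1.5 TPM in mannose tumours, and Il18r1 from 0.31 to 1.02 TPM and 0.40 to 1.47 TPM.

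For the remaining 4 genes the tumour groups overlapped as well, so that none of the 10 genes separated them, against 0.128% of all genes with every mannose tumour lower and 1.51% with every one higher. Il2rg ran from 24.6 to 61.8 TPM in control and 36.0 to 84.0 TPM in mannose tumours, and Il12rb1 from 9.17 to 41.0 TPM and 13.4 to 36.2 TPM. Il18rap ran from 3.51 to 9.09 TPM and 6.95 to 10.3 TPM, and Il15ra from 1.90 to 8.52 TPM and 5.41 to 14.05 TPM. Their differences were 0.38, 0.20, 0.28 and 0.54, at adjusted p of 0.774, 0.897, 0.780 and 0.754 by limma.

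These differences were small without control 1 and mannose 3. Control 1 was the lowest and mannose 3 the highest tumour for several of these genes, so leaving out both moves a positive difference toward 0 by itself. The values that follow show which tumours carried the differences and do not test whether mannose acted. Without control 1 and mannose 3 the median over the 8 genes was 0.03, against 0.01 over all genes, with 5 above 0 and 3 below. Il7r then lay at -0.02, Il2rb at -0.05 and Il12rb1 at -0.22. T cell markers moved the same way: their summed level was 14.2 TPM in control 1 and 145 TPM in mannose 3, against 23.0 to 77.6 TPM in the other 8 tumours, and 13 of 13 had higher means with mannose in all tumours but 4 of 13 without these. Macrophage markers summed to 1709 TPM in control 1 and 4743 TPM in mannose 3, also the lowest and highest.

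Across the 10 tumours, some receptors followed the T cell markers closely. Il2rb did so most, with r = 0.982 and rho = 0.988 against the mean log2(TPM + 1) of the 13 markers (permutation p = 1e-05 for both, the smallest that 100000 permutations can give, adjusted p = 0.0002 over 20 relations). Without the 2 tumours farthest from the median, control 1 and mannose 3, r was 0.956. Il12rb2 (r = 0.944, rho = 0.964, permutation p = 3e-05 and 4e-05, adjusted p = 0.0003 and 0.0004) and Il18r1 (r = 0.928, rho = 0.857, permutation p = 0.0001 and 0.00257, adjusted p = 0.00048 and 0.00851) also held, at r = 0.891 and 0.825 without those tumours. Il12rb2 and Il18r1 were low in the tumours, at 0.05 to 1.5 TPM and 0.31 to 1.47 TPM, under the filter of the tumour test. The points share the fixed total of TPM and the mix of cells in each tumour.

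Il7r and Ifngr1 did not follow the T cell markers once those tumours were left out. For Il7r, r was 0.638 and rho 0.479 (permutation p = 0.0473 and 0.166, adjusted p = 0.0473 and 0.175), and r fell to -0.118, so the relation rests on control 1 and mannose 3. For Ifngr1, r was 0.769 and rho 0.612 (permutation p = 0.0138 and 0.0670, adjusted p = 0.0173 and 0.0893), and r fell to 0.0517. For Il15ra, r went from 0.840 (rho = 0.624, permutation p = 0.00368 and 0.0607, adjusted p = 0.00648 and 0.0866) to 0.429.

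Il21r, Il2rg and Il18rap also followed the macrophage markers. Against the 10 macrophage markers, r was 0.954 for Il21r (rho = 0.830, permutation p = 0.00012 and 0.00476, adjusted p = 0.00048 and 0.0119) and 0.924 for Il2rg (rho = 0.891, permutation p = 5e-05 and 0.00112, adjusted p = 0.000333 and 0.0046). For Il18rap it was 0.844 (rho = 0.891, permutation p = 0.00325 and 0.00115, adjusted p = 0.00648 and 0.0046). Without control 1 and mannose 3 these were 0.827, 0.855 and 0.809. Against T cell markers the 3 genes had r = 0.909 (rho = 0.903), 0.909 (rho = 0.855) and 0.727 (rho = 0.697), with permutation p of 0.00049 and 0.0008, 0.00039 and 0.00298, and 0.0192 and 0.0317, adjusted to 0.0014 and 0.0046, 0.0013 and 0.00851, and 0.0223 and 0.0576. Without those tumours r was 0.802, 0.764 and 0.512.

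Il12rb1 stood nearer to the T cell markers (r = 0.844, rho = 0.782, permutation p = 0.00215 and 0.00987, adjusted p = 0.00538 and 0.0219, and r = 0.755 without those tumours) than to the macrophage markers, where r fell from 0.707 to 0.330 without them. The other 6 genes fell to between -0.220 and 0.500 against macrophage markers without those tumours. Differences between these correlations were not tested.

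**Figure D5:**
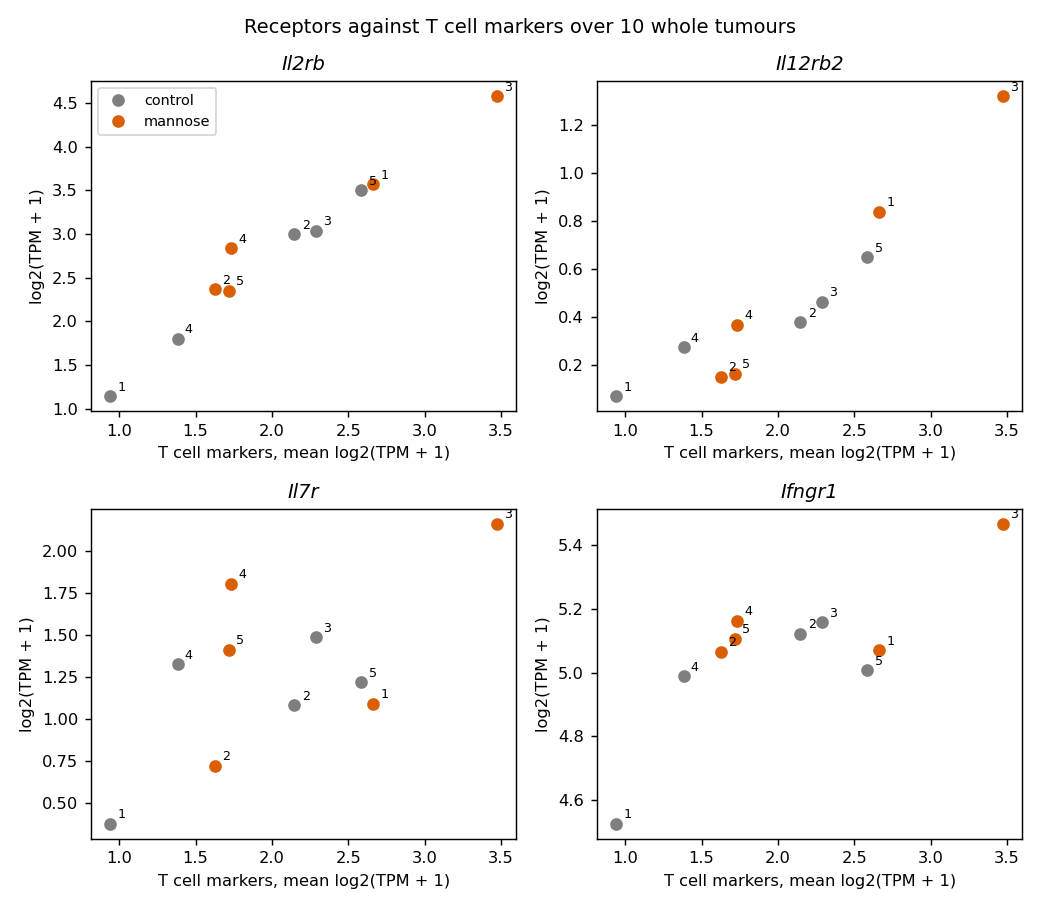
Level of 4 receptor genes in log2(TPM + 1) against the mean log2(TPM + 1) of 13 T cell markers in the 10 whole tumours (5 control in grey, 5 mannose in orange, numbered by replicate). Il2rb and Il12rb2 rise with the markers along the whole range, whereas for Il7r and Ifngr1 the 8 middle tumours show no slope and only control 1 and mannose 3 extend the pattern. Il12rb2 lies at 0.05 to 1.5 TPM, under the filter of the tumour test.

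The genes whose levels were most like those of each receptor across the 10 tumours, by Pearson r on log2(TPM + 1) among 11972 genes, differed from receptor to receptor. Il2rb lay nearest to Zap70 (r = 0.973), a kinase of the T cell receptor that is also among the T cell markers, then H2-Q7 (0.972) and Ptprcap (0.966). Il21r lay nearest to Sirpa (0.993), a myeloid surface receptor, Slc7a8 (0.993) and Lcp1 (0.9905), and Il2rg to Adgrg5 (0.988), Slamf8 (0.985) and Plbd1 (0.983). Ifngr1 lay nearest to Fbln2 (0.989), a matrix protein of connective tissue, Antxr1 (0.987) and Vasn (0.984). The nearest genes were Clcn5 (0.988), Dgkq (0.985) and Prkcd (0.985) for Il18rap, and Mlkl (0.973), Zfp839 (0.972) and Mb21d2 (0.968) for Il12rb1. For Il15ra they were Prdm1 (0.952), Mmp3 (0.946) and AB124611 (0.945), and for Il7r P2ry10 (0.947), Fli1 (0.937) and Dennd4a (0.929). These are descriptions over tumours that share their cell mix.

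Whether mannose acted differently in CD8 libraries and in tumours was tested as an interaction over all 16 libraries. This fit took 1 spread per gene over both tissues, though the tissues differ in spread, whereas the fits within a tissue did not share it. Il7r (-2.11, SE 0.47, adjusted p = 0.0058), Il12rb2 (-1.91, SE 0.40, adjusted p = 0.00363) and Ifngr1 (-0.94, SE 0.24, adjusted p = 0.0112, limma) had a lower mannose effect in CD8 libraries than in tumours, against 7.64% of 15498 genes called lower. Markers moved the same way: 13 of 13 T cell markers lay below 0 (median -0.96, 1 called) and 10 of 10 macrophage markers were called lower (median -2.20). Their part in these differences was not tested, and the value of Ifngr1 was near the T cell marker median. On CD8 values scaled to T cell markers its difference was -0.08. All 10 receptor genes had a difference below 0, where 50.0% of all genes lay above it, with a median of -1.24. Il21r (-1.57, adjusted p = 0.0526), Il18r1 (-1.19, adjusted p = 0.0566) and Il18rap (-1.30, adjusted p = 0.0598) were next and did not pass. Il7r passed in 22 of 22 alternatives, and Il12rb2 and Ifngr1 in 21 of 22. Ifngr1 missed with like pairs averaged (adjusted p = 0.0549) and Il12rb2 at a pseudocount of 0.1 TPM (adjusted p = 0.0997). Il12rb2 lay at 0.05 to 1.5 TPM in the tumours and met the filter of this test only through the CD8 libraries. With 1 TPM added its tumour effect was held near 0, so its interaction mostly restates the CD8 fall. Il18r1 was also under the tumour filter. Il7r was tested in the tumours but was low there, at 0.30 to 3.47 TPM, where the added 1 TPM also pulls its effect toward 0.

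Other genes of these pathways, from lists chosen for these receptors, were read in the same fits. In tumours none of them passed. The smallest p in each list belonged to Il2ra (0.70) and Il1r1 (0.41), Il18 (0.47) and Il4 (-0.31), Jak2 (0.33) and Stat4 (0.37), Tab2 (0.37) and Myd88 (0.30), Socs2 (0.56) and Ptpn2 (0.21), and Myc (-0.16) and Bcl2 (0.25), as log2 differences with adjusted p from 0.754 to 0.809 by limma. In CD8 libraries 9 of 19 other cytokine receptors tested were called lower and 1 higher, against 11.7% and 23.2% of all genes, shares that also hold for the lists that follow. Il2ra, the interleukin 2 receptor chain that raises affinity, fell from 46.1 ± 5.42 to 19.2 ± 10.9 TPM (SD, n = 3; log2 difference -1.34, adjusted p = 0.0220, limma), and Ifngr2, the partner of Ifngr1, fell by 1.02 (adjusted p = 0.00986). Il1r2, a decoy receptor for interleukin 1, fell from 321 ± 49.0 to 69.4 ± 8.12 TPM, and Il13ra1 from 23.0 ± 0.807 to 9.74 ± 1.4 TPM. The receptor called higher was Il1r1, the signalling receptor for interleukin 1, at 2.79 ± 0.992 and 9.59 ± 1.94 TPM. In whole control tumours Il1r1 stood at 5.88 to 13.85 TPM, and 5 of 6 fibroblast markers were called higher in the same CD8 fit. The part of other cells in its rise was not tested.

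Of the ligands, 5 of 12 were measured above the filter in the CD8 libraries, and Il23a (8.26 ± 1.35 to 2.02 ± 0.142 TPM) and Il12a (2.22 ± 0.797 to 0.670 ± 0.440 TPM) fell. In the same fit 10 of 10 macrophage, 4 of 5 dendritic cell and 4 of 5 neutrophil markers tested were called lower. The part of these cells in the falls of the ligands was not tested. Il12a was near the filter of 1 TPM, at 0.23 to 1.11 TPM with mannose. Only 1 ligand was called lower with 0.1 TPM added in place of 1, or with like pairs averaged. Ifng, the ligand of Ifngr1, stood at 103 to 141 TPM in the CD8 controls and 47.1 to 137 TPM with mannose, a difference of -0.79 (adjusted p = 0.145, limma), short of the threshold. In tumours Il18 stood at 5.52 ± 1.15 and 8.02 ± 1.70 TPM (SD, n = 5; log2 difference 0.47, adjusted p = 0.754). Il7, Il2 and Il21 were at or under 0.25 TPM in every library. The JAK kinases and STAT factors had 5 of 11 called lower in CD8 libraries (11.7% of all genes) and none higher (23.2%). That count depended on single libraries. So did the number called lower over all genes, which was 1674 with all libraries, 894 without mannose 2 and 2509 without mannose 3. The JAK and STAT count was 3 without control 1, 2 without control 2, 0 without control 3, 1 without mannose 1 and 0 without mannose 2. It was 10 without mannose 3, where only the like pair mannose 1 and 2 was left. The count was 0 with like pairs averaged or with no filter on low values. Among them Stat4, which acts downstream of interleukin 12, fell from 93.0 ± 21.2 to 48.0 ± 13.6 TPM and Stat5a, downstream of interleukins 2 and 7, from 34.4 ± 5.80 to 24.5 ± 0.887 TPM. Stat3 and Stat2 fell by 0.59 and 0.57 on the log2 scale.

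Interleukin 18 signalling had 3 of 9 genes called lower, Irak2 (-0.70), Myd88 (-0.58) and Nfkb1 (-0.54), and none higher, against 11.7% and 23.2% of all genes. It had 5 lower without mannose 3, where only the like pair mannose 1 and 2 was left. Of the inhibitors, 5 of 10 were called lower and 2 higher, the latter near the share of all genes. This became 2 lower and 1 higher with like pairs averaged or without any 1 of control 1, 2 or 3 or mannose 1 or 2. Cish, an inhibitor of cytokine signalling that STAT5 induces, fell from 66.6 ± 8.40 to 32.3 ± 16.6 TPM (SD, n = 3; adjusted p = 0.0330, limma), Socs2 by 1.02 and Socs3 by 0.88 on the log2 scale. Sigirr, which restrains interleukin 18 and interleukin 1 signalling, rose from 23.2 ± 3.36 to 48.1 ± 6.76 TPM. In whole control tumours Sigirr stood at 60.9 to 87.6 TPM. Of the carcinoma markers, 3 of 4 tested were called higher and 1 lower in the same CD8 fit. The part of other cells in the rise of Sigirr was not tested. Of 12 targets, 6 were called lower and 2 higher, again against 11.7% and 23.2% of all genes. Osm fell from 113 ± 29.6 to 30.7 ± 2.87 TPM and Pim1 from 346 ± 35.1 to 143 ± 25.4 TPM, Gadd45b fell by 1.04 on the log2 scale, and Gadd45g rose from 42.3 ± 8.34 to 83.96 ± 5.50 TPM.

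Scaling to T cell markers changed the counts of these lists. On that scale, where 2.21% of all genes were called lower and 44.9% higher, 2 of 19 other cytokine receptors were lower and 4 higher, and no JAK or STAT gene passed. Of the inhibitors none was lower and 3 were higher, of the targets 2 lower and 4 higher, of the ligands 1 lower, and of interleukin 18 signalling none lower and 1 higher, with a median of 0.33 in place of -0.32. Il1r2 (-1.54), Il2ra (-0.69, adjusted p = 0.0455), Osm (-1.17) and Pim1 (-0.63, adjusted p = 0.0402, limma) still fell. Macrophage markers also fell on this scale (9 of 10 called lower, median -1.24), and their part in these values was not tested. Stat4 (-0.30, adjusted p = 0.288), Cish (-0.47, adjusted p = 0.116) and Ifngr2 (-0.37, adjusted p = 0.402) did not pass. With like pairs averaged, 5 other receptors, 5 targets, 2 genes of interleukin 18 signalling and 1 ligand were called lower. Il1r2, Osm, Pim1 and Ifngr2 passed, and Il2ra (adjusted p = 0.126), Cish (adjusted p = 0.156) and Stat4 (adjusted p = 0.0809) did not.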

How the data were processed

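RNA was sequenced from 10 whole HM1 tumours and 6 libraries of sorted CD8 T cells. The authors deposited 1 table of TPM per library, and, per the submitters' processing notes, fastp, HISAT and RSEM were used with the build GRCm39 (no versions or roles stated). The annotation release is not given in the sources used here. TPM carries no library total, so depth is unknown and no counting interval can be given.

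Groups came from the sample labels. Entries sharing a symbol were summed, and 52916 symbols were shared between tissues. Genes reaching 1 TPM in 5 tumour libraries, in 3 CD8 libraries or, for the interaction, in 3 of all libraries entered the tests. Values were taken as log2(TPM + 1) and fitted by limma 3.58.1 (R 4.3.3) with a trend of the variance. A fold change on this scale understates that of low genes. Benjamini-Hochberg adjustment ran over all genes tested, with a threshold of 0.05. Ratios used exact permutation tests in scipy 1.17.1, and correlations 100000 permutations. The fits were tested on simulated data.

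The receptor genes, 6 lists of pathway genes with 75 genes and 11 lists of cell type markers with 70 genes were chosen with earlier results of these data known. All 10 receptors are named; from each pathway list and tissue, up to 4 genes past the threshold with the largest difference, or the 2 with the smallest p where none passed; and the 3 genes most like each receptor, leaving out predicted genes and receptor segments. Ifngr2, Ifng, Il7, Il2 and Il21 fall outside that rule and were named after their values were seen. Alternatives changed the pseudocount, filter, scaling, weights, fit and libraries one at a time. Scaling and averaging together, averaging in the interaction, and the alternatives on scaled values were added after seeing the data. Python 3.11.15 with matplotlib 3.10.9 made the figures.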

Additional observations from a re-analysis of the deposited data

Results flagged for a closer look

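Among the 5 mannose tumours, mannose 3 lay far from the others for 2 receptor genes: Il15ra at 14.05 TPM, with the rest at 5.41 to 7.45 TPM, and Ifngr1 at 43.21 TPM, with the rest at 32.5 to 34.8 TPM. The gap to the nearest tumour was 0.764 and 0.782 of the range, above the limit of 0.71 for 5 samples. Of 20 groups examined 2 were flagged, where chance flags about 1 in 20. T cell and macrophage markers were also highest in this tumour, and their part in these values was not tested.

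The effect of mannose differed between the CD8 libraries and the tumours for Il7r (-2.11), Il12rb2 (-1.91) and Ifngr1 (-0.94, log2 difference of the effects), by the limma interaction test. In the same test T cell markers had a median of -0.96 and macrophage markers of -2.20, and on CD8 values scaled to T cell markers the difference of Ifngr1 was -0.08 (adjusted p = 0.770); their part was not tested. In tumours the effects of Il7r and Ifngr1 were 0.34 and 0.21 and did not pass. Il12rb2 was under the tumour filter, at 0.05 to 1.5 TPM, so its value mostly restates the fall in the CD8 libraries.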

How the results depend on the processing

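Limits come first from the CD8 libraries, which are 3 against 3, hold 2 like pairs and differ in T cell, macrophage and carcinoma markers, and from unknown read depth, which leaves Il12rb2, Il18r1 and Il7r in tumours without a counting error. In tumours no receptor gene was called under any alternative. Without control 1 and mannose 3 together, Il7r turned to -0.022, Il2rb to -0.053 and Il12rb1 to -0.22, and Il12rb1 ranged from -0.061 to 0.45 when each tumour was left out in turn.

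In CD8 libraries the 6 calls became 2 without a filter on low values, 3 under quantile normalization, 3 when scaled to T cell markers (Il7r and Il12rb2 lower, Il12rb1 higher), 1 with like pairs averaged and 0 with both. It was 9 with array weights, 7 under median-ratio scaling, 5 in 1 fit of all libraries, and 6 at a pseudocount of 0.1 TPM and with the highest entry per symbol. Leaving out each library in turn gave 2 to 8 calls, with 8 without mannose 3, 3 without mannose 1 and 2 without each of the others. Without mannose 3 the mannose group held only the like pair mannose 1 and 2, and without control 3 the controls held only control 1 and 2. Without any 1 of the 3 controls, mannose 1 or mannose 2, the calls of Il2rb, Il2rg and Il21r were lost, as was that of Ifngr1 except without mannose 1. Il12rb1 then ranged from -0.021 to 0.33. Il15ra turned to 0.30 when scaled and 0.22 when scaled and averaged. On the scaled values the 3 calls became 0 with like pairs averaged and ranged from 2 to 6 with a library left out, 6 without mannose 3, and Il2rg from -0.097 to 0.024. The rise of Il12rb1 on that scale was lost without control 1, 2 or 3 or mannose 2. Over all genes, CD8 calls split into 3306 higher and 1674 lower, against 2697 and 2299 under quantile normalization and 2578 and 2534 under median-ratio scaling. They were 5114 and 3517 with array weights, 2748 and 1258 in 1 fit of all libraries, and 2782 and 1250 without a filter. Averaging like pairs gave 1202 and 585. Without mannose 3 they were 3610 and 2509 of 14789 genes, and without mannose 2 they were 1909 and 894 of 14685. On scaled values they were 6414 and 315, and 10658 and 396 without mannose 3. In these cases the cause was not tested; without a filter 27302 genes were tested in place of 14280.

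The 3 calls of the interaction became 7 under median-ratio scaling and 6 under quantile normalization, and ranged from 3 to 6 with a library left out, 5 without tumour control 3 and 6 without CD8 mannose 3. Over all genes, 1712 were called higher and 1184 lower, against 1921 and 1672 under median-ratio scaling and 2050 and 1707 under quantile normalization. Without CD8 mannose 3 these were 1897 and 1604. Il12rb1 turned to 0.0898 with like pairs averaged and ranged from -0.30 to 0.22 with a library left out. Among tumour ratios, Il7r over Il2rg turned to 0.18 at a pseudocount of 0.1 TPM and ranged from -0.23 to 0.12 with a tumour left out, Il12rb2 over Il12rb1 from -0.18 to 0.19 and Il15ra over Il2rb from -0.26 to 0.14. Il2rb over Il2rg in CD8 libraries ranged from -0.15 to 0.0047.

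With the replicate number as a block, 0 receptor genes were called in tumours, 6 in CD8 libraries, 3 on scaled CD8 values and 3 in the interaction, the same counts as without it. Same-numbered tumours correlated in their deviations from the group means at -0.511 to 0.280 and CD8 libraries at 0.0566 to 0.163, and not every sample correlated best with its own number.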
